A study of Mus musculus with 8 samples.

Results

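The 4 Hox clusters were examined as regions of H3K27me3, with HoxA on chromosome 6, HoxB on chromosome 11, HoxC on chromosome 15 and HoxD on chromosome 2. Their members are the peaks that overlapped, by at least 1 bp, a fixed window around each cluster (HoxA chr6:52100001-52215000, HoxB chr11:96050001-96232000, HoxC chr15:102745001-102870000 and HoxD chr2:74480001-74605000, mm9). The windows measure 115, 182, 125 and 125 kb and 547 kb together. Of 208616 peaks in 5 lists, 416 were members, with 78 in HoxA, 132 in HoxB, 75 in HoxC and 131 in HoxD. Coordinates alone decided which peaks were members, without regard to scores, widths or differences between cells. The choice of these clusters was made with earlier results of these data known.

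The mark was profiled by chromatin immunoprecipitation and sequencing at 2 stages of glioma formation, and the question was whether it moves between them. AstroEGFR cells (replicates 1 and 3) are C57BL/6 astrocytes of the cerebral cortex taken at postnatal day 5, p16/p19 KO, transduced with a retrovirus for the human EGFRvIII receptor. PT cells (replicates 1, 3 and 4) are glioma propagating cells cultured from tumours that such cells formed in CD1 Nude mice. Both groups therefore lack p16/p19, carry EGFRvIII and were used below passage 10. Their culture differed, since the study grew astrocytes in medium with serum. It grew glioma propagating cells on laminin in a medium with growth factors, listed without serum. Stage and culture therefore cannot be told apart. The lists hold peaks only, so the labelled cell type could not be checked against expressed markers. The study describes its AstroEGFR replicates as independent astrocyte batches and the tumours as grown from such batches, but no source says that PT replicates came from separate animals, and the p-values then measure only the spread between these samples.

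Hox genes encode homeodomain transcription factors that set position along the body axis, and they lie in their clusters in the order in which they are used. In cells of the forebrain, which normally keep these genes off, Polycomb repressive complex 2 trimethylates lysine 27 of histone H3 across whole clusters, and Hox clusters are a textbook example of broad domains of this mark. Loss of repression of Hox genes, HOXA genes among them, is known from glioma.

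By RefSeq order (GRCm38.p6), the 38 genes run along rising coordinates from Hoxa2 to Hoxa13 in HoxA (10 genes), from Hoxb13 to Hoxb1 in HoxB (10), from Hoxc13 to Hoxc4 in HoxC (9) and from Hoxd13 to Hoxd1 in HoxD (9). Members of low number pattern the hindbrain and neck, and those of high number pattern the trunk end, the limbs and the genital tract. Peaks are on another build, mm9, so no peak was assigned to a single gene. The clusters also hold 5 miRNA genes that give 4 mature sequences. They are shown here because they place 2 seed families, written in capitals (bases 2 to 8), among the Hox genes. No miRNA gene was placed in mm9 or matched to a peak.
miR-10a-5p (HoxB): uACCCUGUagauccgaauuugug
miR-10b-5p (HoxD): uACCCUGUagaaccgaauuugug
miR-196a-5p (HoxB and HoxC): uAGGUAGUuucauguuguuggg
miR-196b-5p (HoxA): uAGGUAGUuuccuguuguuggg
By gene start, Mir10a lay between Hoxb3 and Hoxb4, Mir10b between Hoxd4 and Hoxd1, Mir196a-1 between Hoxb13 and Hoxb9, Mir196a-2 between Hoxc10 and Hoxc9, and Mir196b between Hoxa9 and Hoxa10. Only the starting coordinates of whole genes were compared. A miRNA may therefore lie within the gene named first, before its coding part.

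Promoters were at hand for 22 of the 38 genes (24 promoters of 300 bases, RefSeq, GRCm38.p6), 10 in HoxA, 3 in HoxB, 1 in HoxC and 10 in HoxD. Dense CG dinucleotides are a known feature of Polycomb targets. Hox promoters held 4 to 45 CG, with a median of 14.5 beside 7 over all 32851 promoters, and their median G and C content was 57.7% beside 52.7%. The ratio of observed to expected CG exceeded 0.6 in 12 of the 24 Hox promoters and in 35.8% of all promoters. The 250 bases before the start are printed for the promoter richest in CG among those at hand in each cluster. They run 5′ to 3′ on the strand of the gene, with each CG in capitals (CG reads the same on both strands).
Hoxa13, minus strand, chr6:52260881-52261130 (GRCm38.p6): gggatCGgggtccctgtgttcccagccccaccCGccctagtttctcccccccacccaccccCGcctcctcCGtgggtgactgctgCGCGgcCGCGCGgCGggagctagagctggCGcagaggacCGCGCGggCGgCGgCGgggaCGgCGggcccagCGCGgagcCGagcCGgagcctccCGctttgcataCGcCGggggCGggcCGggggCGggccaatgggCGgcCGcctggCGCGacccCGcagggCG
Hoxb4, plus strand, chr11:96318017-96318266 (GRCm38.p6): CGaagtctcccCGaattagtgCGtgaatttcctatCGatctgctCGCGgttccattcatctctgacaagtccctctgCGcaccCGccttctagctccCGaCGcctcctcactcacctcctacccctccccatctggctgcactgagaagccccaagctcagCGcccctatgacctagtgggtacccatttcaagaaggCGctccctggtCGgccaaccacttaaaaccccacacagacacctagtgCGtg
Hoxc4, plus strand, chr15:103034145-103034394 (GRCm38.p6): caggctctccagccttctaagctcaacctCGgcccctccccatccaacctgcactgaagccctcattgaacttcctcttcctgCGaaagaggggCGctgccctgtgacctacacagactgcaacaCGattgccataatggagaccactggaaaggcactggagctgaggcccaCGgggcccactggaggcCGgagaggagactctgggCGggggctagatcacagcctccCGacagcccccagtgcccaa
Hoxd13, plus strand, chr2:74667975-74668224 (GRCm38.p6): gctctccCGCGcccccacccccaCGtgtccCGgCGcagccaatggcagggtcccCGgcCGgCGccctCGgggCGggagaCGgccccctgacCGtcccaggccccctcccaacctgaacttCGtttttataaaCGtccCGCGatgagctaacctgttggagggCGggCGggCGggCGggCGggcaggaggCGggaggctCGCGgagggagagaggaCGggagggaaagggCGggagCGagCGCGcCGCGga
The printed stretches of Hoxa13 and Hoxd13, the genes at the posterior ends, held 35 and 31 CG, and those of Hoxb4 and Hoxc4 held 14 and 8. Promoters of Hoxb13 and Hoxc13 were not at hand, so the posterior ends of HoxB and HoxC cannot be compared. High CG content was therefore not shared by every promoter of the clusters.

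The lists differ greatly in length, from 3722 peaks in AstroEGFR 3 and 34021 in AstroEGFR 1 to 40090 in PT 3, 64504 in PT 1 and 66279 in PT 4. The number of reads behind them is unknown, and a stretch without a peak is one that did not reach the threshold of its list. AstroEGFR 3 stands apart as the shortest, covering 0.132% of the placed chromosomes where the others covered 1.49% to 3.32%. The lists also fell into sets that cut across the groups. AstroEGFR 1, PT 1 and PT 4 held 179 to 236 peaks on unplaced sequences, and AstroEGFR 3 and PT 3 held 0. No source read here says what this split reflects. Differences between groups in the Hox windows are given with and without AstroEGFR 3 and within these sets.

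In 4 of 5 lists most of the combined window length was marked. Peaks covered 76.1% of it in AstroEGFR 1, while PT 1, PT 3 and PT 4 stood at 78.7%, 71.8% and 78.5% and AstroEGFR 3 at 16.3%. The covered share of AstroEGFR 1 lay inside the PT range for every cluster and for the 4 together. Relative to the share of the placed chromosomes covered by the same list, the Hox windows were 40.3 and 124 times as covered in AstroEGFR 1 and 3, and 23.7, 48.3 and 24.6 times in PT 1, 3 and 4. The list with the least Hox length was thus the one in which that length weighed most.

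**Figure D1:**
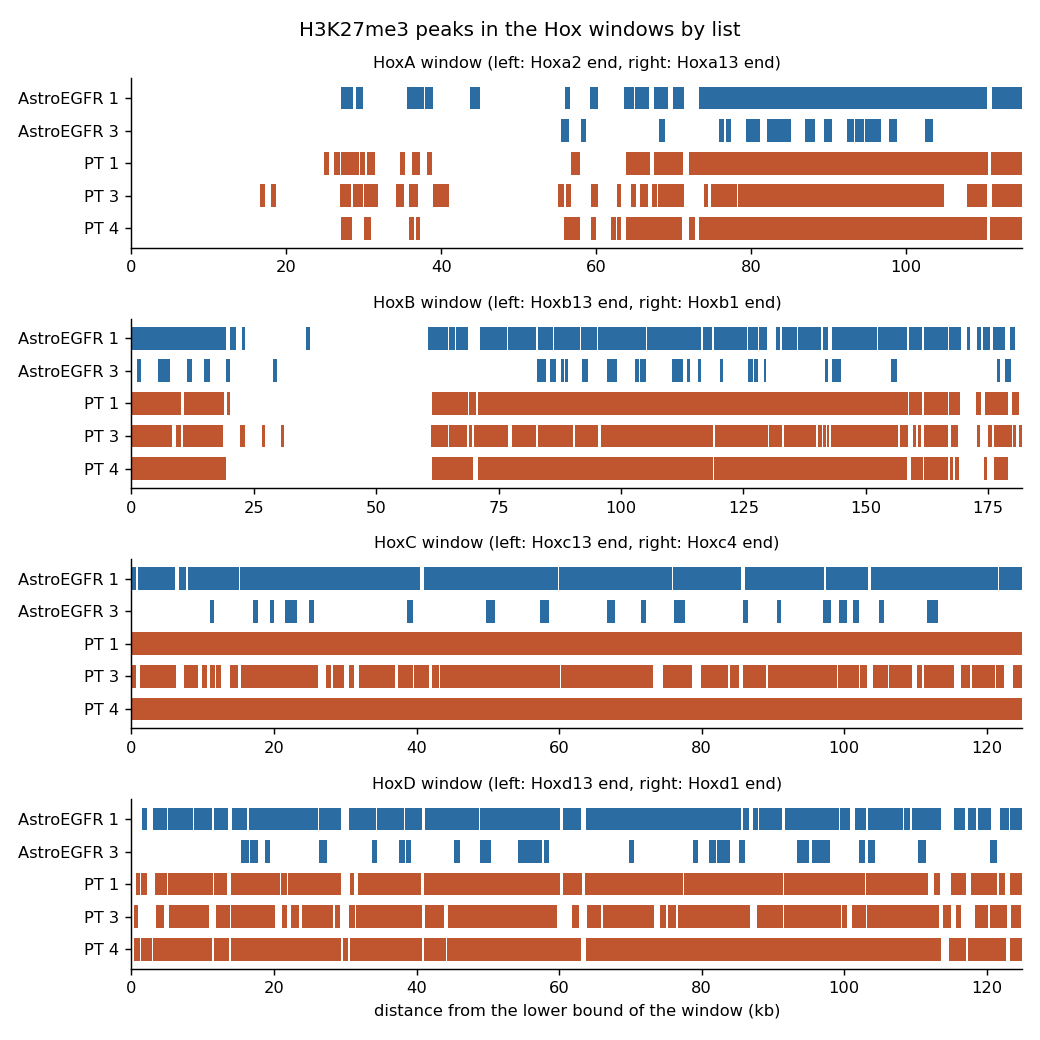
Peaks of each H3K27me3 list (bars, blue for AstroEGFR and red for PT) in the 4 Hox windows, against distance from the lower bound of the window in kb. HoxC is covered end to end in PT 1 and PT 4, the left part of HoxA and a stretch of HoxB are empty in all 5 lists, and AstroEGFR 3 shows short separate peaks.

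HoxC was the most completely marked cluster. It was covered to 97.1% in AstroEGFR 1, 100% in PT 1, 86.3% in PT 3, 100% in PT 4 and 14.2% in AstroEGFR 3. A single peak spanned the whole window in PT 1 (chr15:102737083-102876174, 139092 bp) and in PT 4 (chr15:102735876-102877711, 141836 bp), and each was the widest peak of its list. The same stretch was split into 17 peaks in AstroEGFR 1, up to 17740 bp wide, 38 in PT 3, up to 15754 bp, and 18 in AstroEGFR 3, up to 1641 bp. Gaps between the peaks of AstroEGFR 1 had a median of 173 bp and reached 573 bp, short beside the peaks themselves. Once all lists were merged, HoxC formed the widest of 99403 merged regions, 146 kb.

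HoxD came next, with 89.1% in AstroEGFR 1, 91.8% in PT 1, 83.3% in PT 3, 96.2% in PT 4 and 20.7% in AstroEGFR 3. No single peak spanned it in any list. Its widest peak measured 24212 bp in PT 4 and 19043 bp in PT 1, less in PT 3 (15176 bp) and in AstroEGFR 1 (8916 bp), and 3314 bp in AstroEGFR 3. Peaks numbered 36, 22, 22, 33 and 18 in AstroEGFR 1, AstroEGFR 3, PT 1, PT 3 and PT 4. Cut at its middle, the window was covered alike on both sides, to 90.7% toward Hoxd13 and 87.6% toward Hoxd1 in AstroEGFR 1 and to 81.5% to 96.7% and 85.0% to 95.7% in PT. Peaks were sparser outside, where the 20 kb flanks were covered to between 0% in AstroEGFR 3 and 36.5% in PT 4.

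HoxB was covered to 69.9% in AstroEGFR 1, 72.9% in PT 1, 68.8% in PT 3, 69.98% in PT 4 and 15.9% in AstroEGFR 3. Its empty part was a stretch of 24063 bp at chr11:96086489-96110551, on the Hoxb13 side of the middle, that no list marked. Coverage of that side was 53.6% in AstroEGFR 1 and 52.8%, 51.8% and 52.5% in the PT lists, against 86.2%, 93.0%, 85.8% and 87.5% on the side toward Hoxb1. AstroEGFR 3 kept the same order, with 12.3% and 19.5%. The first 15 kb of the window at the Hoxb13 end were marked again, at 85.8% to 100% of each 5 kb part in the 4 longer lists. The widest HoxB peak measured 47960 bp in PT 4, the third widest of that list, and 14550 bp in AstroEGFR 1.

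HoxA was marked mainly on its Hoxa13 side. Covered shares were 48.9% in AstroEGFR 1, 50.5% in PT 1, 48.2% in PT 3, 49.4% in PT 4 and 14.7% in AstroEGFR 3. Above the middle of the window, toward Hoxa13, they were 84.7%, 86.6%, 76.5%, 89.5% and 27.7% in that order, and below it, toward Hoxa2, they were 13.1%, 14.5%, 19.9%, 9.34% and 1.76%. Every list therefore had more of the mark on the posterior side. No list had a peak over the first 16630 bp of the window (chr6:52100001-52116630) or over 10075 bp further in (chr6:52144992-52155066). The widest peak there measured 38585 bp in PT 1 (the sixth of its list by width) and 37256 bp in PT 4 (the eighth), beside 19094 bp in AstroEGFR 1, with 13837 bp in PT 3 and only 3132 bp in AstroEGFR 3.

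The order HoxC, HoxD, HoxB, HoxA in covered share held in 4 lists. AstroEGFR 3 had the order HoxD, HoxB, HoxA, HoxC, within a span of 14.2% to 20.7%. Of 110 parts of 5 kb (the last part of HoxB was 2 kb), 39 were covered to at least 90% in each of the other 4 lists, and AstroEGFR 3 had a peak in 33 of them, at a median coverage of 25.8%. It had none in 48 parts of the 110, and 9 parts, all in HoxA and HoxB, were empty in all 5 lists.

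**Figure D2:**
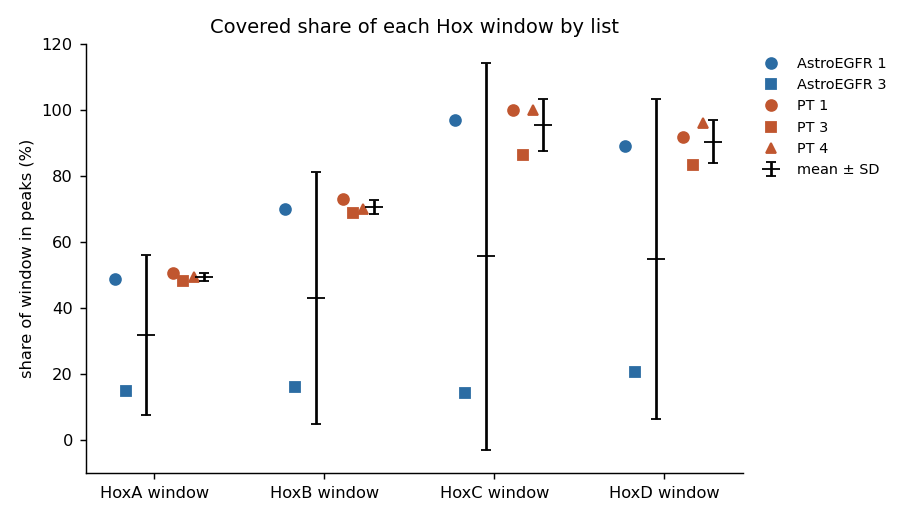
Share of each Hox window covered by peaks (%), one symbol per list, with the group mean ± SD (AstroEGFR n = 2, PT n = 3; the SD bar of AstroEGFR passes 0% and 100% in HoxC and 100% in HoxD, and that of PT passes 100% in HoxC). AstroEGFR 1 lies among the PT lists in each window and AstroEGFR 3 lies below 21%.

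For the difference between groups, an exact two-sided permutation test used the 10 ways to divide 5 libraries into 2 and 3, whose smallest possible p is 0.1, so no difference could pass 0.05. HoxA was covered to 49.4% ± 1.16 (SD, n = 3) in PT and 31.8% ± 24.1 (SD, n = 2) in AstroEGFR, a difference of 17.6 percentage points. For HoxB the means were 70.6% ± 2.11 and 42.9% ± 38.2, a difference of 27.6 points. For HoxC they were 95.4% ± 7.93 and 55.6% ± 58.7, a difference of 39.8 points. For HoxD they were 90.4% ± 6.57 and 54.9% ± 48.4, a difference of 35.5 points. Each gave an exact p of 0.2, also after adjustment over the 4 clusters (Benjamini-Hochberg), and in each cluster the distance between the 2 AstroEGFR lists (34.2, 54.0, 83.0 and 68.5 points) exceeded the difference between groups.

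Over the 4 windows together PT stood at 76.3% ± 3.96 (SD, n = 3) and AstroEGFR at 46.2% ± 42.3 (SD, n = 2), a difference of 30.1 points (exact permutation p = 0.2). That difference rested on AstroEGFR 3, since without it PT exceeded AstroEGFR by 0.221 points and in HoxC the difference was -1.69. Among the lists with peaks on unplaced sequences PT exceeded AstroEGFR 1 by 1.09 points in HoxA, 1.51 in HoxB, 2.89 in HoxC and 4.86 in HoxD. Between PT 3 and AstroEGFR 3, the lists without, the differences were 33.5, 52.9, 72.1 and 62.6 points. Covered share of the Hox windows rose in the same order as the total covered length of the lists (3.48 Mb in AstroEGFR 3, 39.2 in PT 3, 49.8 in AstroEGFR 1, 84.3 in PT 4 and 87.6 in PT 1), whose part in the difference between groups was not tested.

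Limiting every list to its 3722 strongest peaks, the length of AstroEGFR 3, left the Hox windows covered to 63.7% in AstroEGFR 1 and 16.3% in AstroEGFR 3, and to 71.9%, 61.2% and 73.8% in PT 1, PT 3 and PT 4. AstroEGFR 3 stayed far below the rest with equal numbers of peaks, but these did not make covered length equal. Peaks with a score of 3100 or more alone covered 12.4 Mb in PT 1 and 10.96 Mb in PT 4. All peaks of AstroEGFR 3 covered 3.48 Mb. With this limit the log2 ratio of Hox to chromosome-wide coverage differed by -0.17 (PT minus AstroEGFR). With AstroEGFR 3 left out, the others were limited to the covered length of PT 3 (39.2 Mb). Covered share of the Hox windows was then 74.7% (AstroEGFR 1), 75.1% (PT 1), 71.8% (PT 3) and 75.5% (PT 4).

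The number of Hox peaks followed covered length poorly. PT lists held 55, 132 and 44 Hox peaks and AstroEGFR lists 105 and 80, which gave 77.0 ± 47.9 (SD, n = 3) against 92.5 ± 17.7 (SD, n = 2), a difference of -15.5 (exact permutation p = 0.7). The direction was not stable, at -28 without AstroEGFR 3, 1 without PT 4 and -43 without PT 3. Among AstroEGFR 1, PT 1 and PT 4 the difference was -55.5, and between PT 3 and AstroEGFR 3 it was 52. Pairing the libraries of equal replicate number gave 1. The lists with fewest Hox peaks, PT 1 and PT 4, covered the most Hox length. As a share of each list, Hox peaks made up 2.15% of AstroEGFR 3 and 0.309% of AstroEGFR 1, beside 0.329% of PT 3, 0.0853% of PT 1 and 0.0664% of PT 4. The log2 ratio of Hox to chromosome-wide coverage was 4.93 ± 0.58 (SD, n = 3) in PT and 6.14 ± 1.15 (SD, n = 2) in AstroEGFR, a difference of -1.22 (exact permutation p = 0.3). It was -0.41 without AstroEGFR 3, -0.74 in the lists with peaks on unplaced sequences and -1.36 between those without. The ratio has a ceiling, since no window can be covered beyond 100%, and the ceiling is lower in longer lists. It is 30.1 in PT 1 and 31.3 in PT 4, below the 40.3 observed in AstroEGFR 1. For these PT lists a ratio below AstroEGFR was thus fixed in advance.

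**Figure D3:**
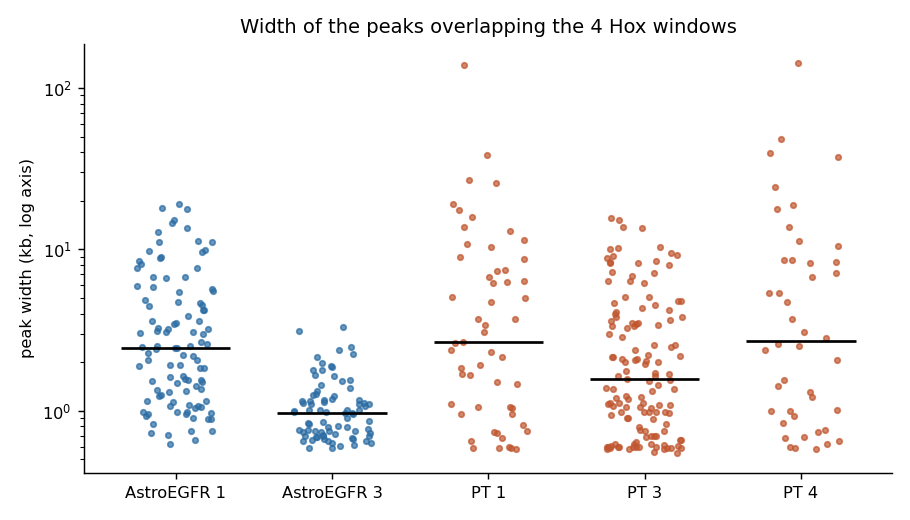
Width of each peak that overlapped a Hox window (kb, log axis) in each list, with the median as a line; points are spread sideways for legibility. Widths reach 139 kb in PT 1 and 142 kb in PT 4 and stay under 3.4 kb in AstroEGFR 3.

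Hox peaks were wide for their list. Their median width was 2450 bp in AstroEGFR 1 against 1031 bp over the whole list. For AstroEGFR 3 these medians were 972.5 and 764 bp. For PT 1 they were 2681 and 808 bp, for PT 3 1564 and 684 bp, and for PT 4 2699 and 792 bp. Peaks wider than 10 kb numbered 10 in the Hox windows of AstroEGFR 1, of 157 in its list. PT 1 had 12 of 434 there, PT 3 had 7 of 44 and PT 4 had 10 of 359. AstroEGFR 3 had 7 such peaks, 0 of them in a Hox window.

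They also scored high, although scores can be compared only within a list. The median Hox peak stood at percentile 90.6 of its list in AstroEGFR 1 and at 76.4 in AstroEGFR 3, and the PT lists gave 94.1, 90.3 and 93.3. Many of the strongest peaks shared a score of 3100, at or near the top of the scale. Of the peaks at 3100 or more, the Hox windows held 10 of 194 in AstroEGFR 1, 21 of 1176 in PT 1, 12 of 92 in PT 3, 17 of 1082 in PT 4 and 0 of 23 in AstroEGFR 3, whose best Hox peak scored 552.81. The mean percentile was 77.4 ± 1.395 (SD, n = 3) in PT and 72.2 ± 9.63 (SD, n = 2) in AstroEGFR (difference 5.23, exact permutation p = 0.6). Without AstroEGFR 3 the difference was -1.58, and within the sets it was -0.774 with peaks on unplaced sequences and 10.4 without.

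Most of the Hox length was marked by the same lists. The combination of AstroEGFR 1 with all PT lists, without AstroEGFR 3, took 273 kb (49.9% of the windows and 0.367% of the placed chromosomes), and all 5 lists shared 82.1 kb (15.0% and 0.0486%). A further 40.1 kb (7.32% and 0.649%) was marked in AstroEGFR 1, PT 1 and PT 4, and 84.4 kb (15.4% and 94.6%) in no list. Of the Hox length of AstroEGFR 3, 92.8% was also marked in AstroEGFR 1 and 96.5% to 96.8% in each PT list. Those other lists covered 71.8% to 78.7% of the windows, so much sharing follows from their coverage alone. The matching shares over the placed chromosomes were not computed. AstroEGFR 1 shared 96.3% of its Hox length with PT 1, 87.4% with PT 3 and 96.4% with PT 4.

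**Figure D4:**
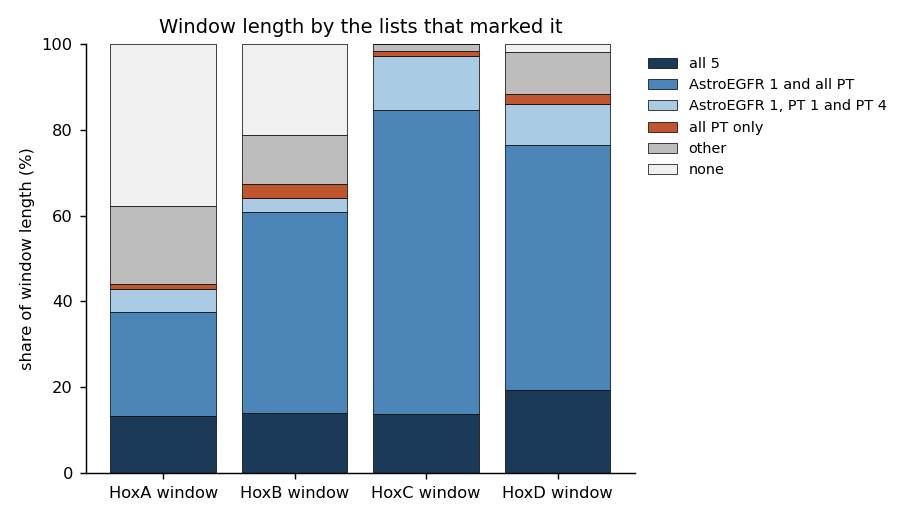
Length of each Hox window (% of the window) by the lists whose peaks marked it. The combination of AstroEGFR 1 with all PT lists is the tallest part in HoxB, HoxC and HoxD, while in HoxA the unmarked part is taller (37.8%), and length marked in all PT lists alone takes 1.12% to 3.11%.

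Length with a peak in each of the 3 PT lists but in no AstroEGFR list is called acquired here. It came to 11.5 kb (2.10% of the windows, beside 0.198% of the placed chromosomes). Of the length marked in any list, however, it made up 2.48% in the windows and 3.67% over the placed chromosomes. It amounted to 1.29 kb in HoxA, 5.66 kb in HoxB, 1.501 kb in HoxC and 3.01 kb in HoxD, in short pieces. The longest were 559 bp in HoxA (chr6:52169293-52169851), 1329 bp in HoxB (chr11:96180327-96181655), 573 bp in HoxC (chr15:102785466-102786038) and 387 bp in HoxD (chr2:74480585-74480971). The pieces named in HoxA, HoxB and HoxC lay in gaps between neighbouring peaks of AstroEGFR 1. In HoxA and HoxC the piece was the whole gap. They are thus breaks between marked stretches of AstroEGFR 1, not sites away from its peaks. Without AstroEGFR 1 the same class would take 284 kb, and without AstroEGFR 3 14.6 kb, so the class rested mainly on AstroEGFR 1. No base of the windows was lost, that is, marked in both AstroEGFR and in no PT list.

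Counted in 1 kb bins marked over at least 500 bp, 8 of 547 Hox bins (1.46%) were acquired, where the share over all bins of the placed chromosomes was 0.215%. The lost class held 0 Hox bins, with 0.00133% over all bins. Bins marked in all 5 lists numbered 85 in the Hox windows (15.5%), with 0.0515% over all bins. Among merged regions, 1 of 45 in the Hox windows (2.22%) was acquired, against 3.77% of all merged regions. That one measured 883 bp and lay at the Hoxd13 end of HoxD (chr2:74480381-74481263). Regions marked in all 5 lists numbered 14 of 45 (31.1%), against 1.32%, and lost ones 0, against 0.0231%. With 1 bp enough to mark a bin, 6 Hox bins (1.1%) were acquired against 0.391% of all, 0 lost against 0.00231%, and 156 in all 5 lists (28.5%) against 0.114%. The acquired share of Hox bins was above that of all bins, but 94.6% of the placed length was marked in no list. With 1 acquired Hox region, the share of Hox regions cannot be told from that of all regions.

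The longest stretches marked in all 5 lists were 3132 bp in HoxA (chr6:52182041-52185172), 2387 bp in HoxB (chr11:96055455-96057841), 1641 bp in HoxC (chr15:102766549-102768189) and 2469 bp in HoxD (chr2:74575518-74577986). Each of these 4 stretches is 1 whole peak of AstroEGFR 3. All 5 shared 15.2 kb of HoxA, 25.6 kb of HoxB, 17.1 kb of HoxC and 24.2 kb of HoxD.

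Against tiles of the same length over the rest of the placed chromosomes, HoxC and HoxD were more covered than each of 21081 tiles in every list but AstroEGFR 3, although the margin for HoxD in PT 1 was small (91.8% against a highest tile of 91.7%). HoxB was equalled or passed by 4 of 14473 tiles in AstroEGFR 1, and by 5, 0 and 7 in the PT lists. HoxA was equalled or passed by 64 of 22917 tiles in AstroEGFR 1, and by 134, 15 and 142 in the PT lists. In AstroEGFR 3 between 2 and 6 tiles reached each cluster, and the median tile was at 0% in every list. The tiles are a description of the lists, and no test was made on them.

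**Figure D5:**
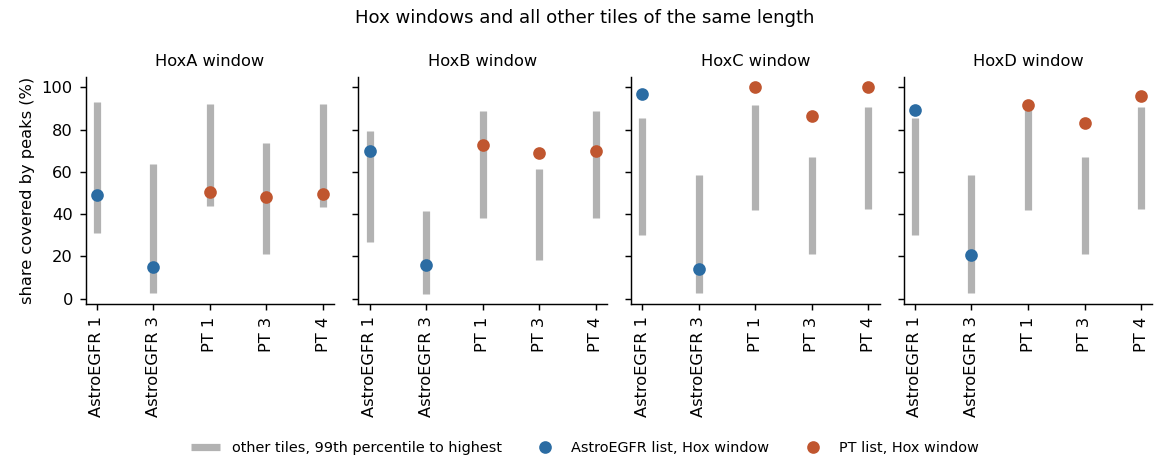
Share covered by peaks (%) of each Hox window (points, blue for AstroEGFR and red for PT) and of all other tiles of the same length (grey bars from the 99th percentile to the highest tile) in each list. HoxC and HoxD lie above the grey bars in AstroEGFR 1, PT 1, PT 3 and PT 4, and HoxA lies within them in all 5 lists.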

How the data were processed

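H3K27me3 peak lists of 5 libraries (2 AstroEGFR, 3 PT) were analysed, and 3 input libraries were not analysed here. The submitters' processing notes name Bowtie 0.12.9, MACS 1.4.1 and mm9. The authors called peaks for each library and deposited positions with a score per peak. No header says what the score is (MACS reports a log-scaled p-value), so scores were only ranked within a list. Read depth and the input used for each list are not given in the sources used here, so depth is unknown and no counting interval can be given.

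Covered length, peak number and score percentiles were computed for the 4 Hox windows with Python 3.11.15, pandas 2.3.3, numpy 2.4.6 and scipy 1.17.1, and figures with matplotlib 3.10.9. Group means were compared by an exact two-sided permutation test over libraries, with Benjamini-Hochberg adjustment over the 4 clusters. Overlap functions were tested on simulated lists. A bin of 1 kb counted as marked with at least 500 bp in a peak. The regions named are the longest stretch of each class in each cluster and the widest or highest-scored peak of each list. Alternatives varied the score threshold, list length, window bounds, gaps, bins and libraries. Members and lists were chosen with earlier results of these data known. Sequences and gene order come from RefSeq (GRCm38.p6), were not converted to mm9, and all 38 genes were matched.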

Additional observations from a re-analysis of the deposited data

How the results depend on the processing

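Depth is unknown and limits every absence of a peak. PT minus AstroEGFR in covered percent kept its sign in HoxB and HoxD under all 15 alternatives, and so did the log2 ratio, but at values near 0 under some of them. In their full lists PT 1 and PT 4 could not reach the ratio of either AstroEGFR list, so the sign of the log2 ratio says little. Leaving out 1 library at a time gave 0.499 to 34.6 points for HoxA, 0.628 to 54.6 for HoxB, -1.69 to 81.3 for HoxC, 1.28 to 69.8 for HoxD and 0.221 to 60.0 for the 4 windows. It gave -2.03 to -0.41 for the log2 ratio, -1.58 to 12.04 for the mean score percentile and -43 to 1 for peak number. Acquired length ran from 13.5 to 284 kb, lost length from 0 to 6.89 kb, length in all lists from 82.1 to 355 kb and length in none from 85.99 to 93.1 kb. The lowest HoxC and percentile values came without AstroEGFR 3, the highest peak number without PT 4, and acquired length was 18.8 kb without PT 3.

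Without AstroEGFR 3 and at equal covered length, an alternative added after seeing the data, the differences were -2.26 points in HoxA, -1.69 in HoxC and -0.547 over the 4 windows, against 0.838 in HoxB, 0.157 in HoxD and -0.01 for the log2 ratio, with 6.64 kb lost and 345 kb in all lists. Among lists with peaks on unplaced sequences the percentile differed by -0.774, with 22.2 kb acquired, 8.98 kb lost and 395 kb in all. Between lists without, peak number differed by 52, with 306 kb acquired, 2.84 kb lost and 152 kb in none. With equal numbers of strongest peaks the log2 ratio differed by -0.17 and acquired length was 26.4 kb. Acquired length was 5.82 kb with gaps up to 1000 bp merged and 6 kb in bins marked with at least 1 bp, which put 156 kb in all lists. Windows widened by 20 kb held 139 kb in no list. Causes were not tested. Covered length equal to that of AstroEGFR 3 was not run, since peaks tied at 3100 cover 12.4 Mb in PT 1 and 10.96 Mb in PT 4 and exceed it.

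Replicate numbers 1 and 3 recur in both groups, which makes 2 pairs. The study describes numbered astrocyte batches with tumours derived from each. No source read here ties the number of a PT library to its batch, and PT 4 has no AstroEGFR list of its number. The libraries were therefore not treated as paired in the tests above. Deviations from the group means correlated at 0.282 between the samples numbered 1 and 0.395 between those numbered 3 (1 kb bins). Between AstroEGFR 1 and PT 4 the value was 0.239. With 2 AstroEGFR lists their deviations mirror each other, so AstroEGFR 3 with PT 1 gave -0.282 and AstroEGFR 1 with PT 3 gave -0.395. The values are thus not independent. AstroEGFR 1, PT 1 and PT 4 are also the lists with peaks on unplaced sequences, so the correlations cannot show pairing. With the replicate block the differences were 17.5 points in HoxA, 27.9 in HoxB, 37.5 in HoxC, 32.7 in HoxD and 29.0 over the 4 windows, peak number differed by 1, and lost length was 0.084 kb.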

Other observations

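On chromosome 11, HoxB held 26 of the 316 peaks of AstroEGFR 3 (8.23%), 38 of 2514 in AstroEGFR 1, 18 of 5381 in PT 1, 38 of 2533 in PT 3 and 12 of 5703 in PT 4. Length marked in a single list made up little of the Hox windows, with 8.70 kb in PT 3, 6.89 kb in AstroEGFR 1, 4.18 kb in PT 1, 3.48 kb in PT 4 and 1.56 kb in AstroEGFR 3.

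Outside the windows the 20 kb flanks of HoxC were covered to 76.5% in AstroEGFR 1, 75.0% in PT 1, 87.9% in PT 4, 24.2% in PT 3 and 3.43% in AstroEGFR 3. Those of HoxA were covered to 43.6%, 45.2%, 45.1%, 27.9% and 10.9% in the same order. Those of HoxB were covered to 56.9%, 69.9%, 52.8%, 53.1% and 8.10%, so PT 3 was close to PT 4 there. Peaks in AstroEGFR 1, PT 1, PT 4 and PT 3 ran on past the bounds of the rule.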
